A study of Mus musculus with 2 samples.

Results

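The genes described here are 39 genes of sterol and sebaceous lipid synthesis, out of 31053 features in the count tables, chosen by symbol and read in every cell class of mouse back skin. They were measured by droplet single-cell RNA sequencing in 2 libraries of UMI counts, where a UMI is a tag that marks 1 captured transcript. One library came from 1 wild-type (WT) mouse and the other from 1 mouse of genotype Card14 KI +/+ (Card14KI), both of strain C57BL/6 and 12 months old. In keratinocytes the CARD14 scaffold feeds the NF-kB pathway, and the series uses the mutant mice to model pityriasis rubra pilaris, which makes skin red and scaly. With 1 mouse a group there is no test and no spread between animals, so values describe these 2 animals' cells, and the 95% intervals given hold only the error of counting.

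Sebaceous glands sit beside the hair follicle and make sebum in a holocrine way: basal cells divide, their daughters fill with lipid, and the whole cell is then shed. Sterols are built from acetyl-CoA through the mevalonate pathway, whose genes are switched on together by the transcription factor SREBP-2 when cell sterol runs low. SREBP-1 does the same for fatty acid synthesis, and INSIG1 holds both factors back in the endoplasmic reticulum. Elongases and desaturases then shape the fatty acids, which are joined to glycerol, fatty alcohols or sterols to give the triglycerides, waxes and sterol esters of sebum. The upper epidermis makes sterols too, for the lipid barrier of the horny layer.

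By role the members were 12 genes of sterol synthesis, 5 regulators, 11 genes of fatty acid synthesis, elongation and desaturation, 8 genes that assemble glycerolipids, waxes and sterol esters, and 3 genes of lipid droplets and other functions. All 39 have a place on GRCm38 (the mm10 assembly) in GENCODE vM21. They lay on 17 chromosomes, with 7 on chromosome 19 (Scd1, Scd2, Scd3, Elovl3, Fads1, Fads2 and Gpam) and 4 on chromosome 11 (Srebf1, Fasn, Acaca and Acly), which also carries Card14. The stearoyl-CoA desaturase genes are neighbours on chromosome 19. Scd3 spans 44203269 to 44244016 on the plus strand, Scd2 spans 44293674 to 44306864 on the plus strand, and Scd1 spans 44394455 to 44407879 on the minus strand. In the last 500 bases of their transcripts, where this chemistry reads, the Scd genes shared 0 words of 90 bases with each other. Agpat2 (chromosome 2, 26593057 to 26604417, minus strand) overlaps exons of Egfl7 on the other strand, and Fdps overlaps Gm43738 on its own strand.

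Promoter sequences from RefSeq (GRCm38.p6) were matched for 28 of the 39 members, as windows from 250 bases before to 50 after the start site. The CCAAT box, the letters CCAAT or its reverse complement ATTGG, binds NF-Y, a known partner of SREBP at sterol genes. It was searched on both strands and stood in the promoters of 9 of 9 matched sterol synthesis genes and 4 of 4 matched regulators. It stood in 3 of 7 matched fatty acid genes, 4 of 6 matched assembly genes and 1 of the 2 matched droplet genes. In all, 21 of 28 matched members (75%) held it, beside 41.1% of 27025 genes with a promoter of the same length. The core of a sterol regulatory element, TCACNCCAC, stood in 1 of 28 members, Hmgcs1, beside 1.44% of all genes. The E-box CACGTG stood in 5 of 28 (17.9%), beside 8.09%. These matches are a description of letters, not of bound sites, and the motifs do not overlap each other in the sequences shown. The 250 bases before the start site are printed for 4 sterol genes that share the CCAAT box and were high in sebocytes, and for 2 members without it, Agpat2 and Scd3, whose levels differed most between the libraries among well-counted members of the sebocytes. Each runs 5′ to 3′ on the gene's strand, with CCAAT or ATTGG and, in Hmgcs1, the sterol element core TCACCCCAC in capitals. That core begins 137 bases before the start site. The windows are chr13:119690101-119690350 (plus strand) for Hmgcs1, chr13:8885356-8885605 (plus) for Idi1, chr5:114444019-114444268 (plus) for Mvk, chr8:64733579-64733828 (minus) for Msmo1, chr2:26604418-26604667 (minus) for Agpat2 and chr19:44203038-44203287 (plus) for Scd3.
Hmgcs1: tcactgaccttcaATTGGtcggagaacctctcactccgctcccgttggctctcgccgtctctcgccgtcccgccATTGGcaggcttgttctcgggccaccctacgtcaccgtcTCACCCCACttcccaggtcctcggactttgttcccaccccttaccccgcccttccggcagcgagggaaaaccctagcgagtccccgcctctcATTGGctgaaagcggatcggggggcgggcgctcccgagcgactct
Idi1: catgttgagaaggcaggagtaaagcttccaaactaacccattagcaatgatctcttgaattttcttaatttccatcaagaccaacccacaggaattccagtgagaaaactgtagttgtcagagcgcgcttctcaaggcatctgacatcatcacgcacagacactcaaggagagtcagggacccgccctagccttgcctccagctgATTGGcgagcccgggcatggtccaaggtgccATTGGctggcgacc
Mvk: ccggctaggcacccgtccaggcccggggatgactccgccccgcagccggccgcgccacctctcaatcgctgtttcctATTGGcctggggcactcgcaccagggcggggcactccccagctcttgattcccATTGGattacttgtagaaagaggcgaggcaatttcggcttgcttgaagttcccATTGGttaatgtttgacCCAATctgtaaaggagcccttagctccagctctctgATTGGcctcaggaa
Msmo1: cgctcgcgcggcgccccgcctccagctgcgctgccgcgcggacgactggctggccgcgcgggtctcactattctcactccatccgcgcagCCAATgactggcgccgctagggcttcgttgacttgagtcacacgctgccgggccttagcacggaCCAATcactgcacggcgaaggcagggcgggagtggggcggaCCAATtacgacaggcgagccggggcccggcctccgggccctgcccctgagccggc
Agpat2: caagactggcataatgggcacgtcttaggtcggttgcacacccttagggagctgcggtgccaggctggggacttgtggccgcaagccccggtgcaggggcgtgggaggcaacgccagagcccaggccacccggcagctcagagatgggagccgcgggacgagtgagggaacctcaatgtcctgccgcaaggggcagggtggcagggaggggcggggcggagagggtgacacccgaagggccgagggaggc
Scd3: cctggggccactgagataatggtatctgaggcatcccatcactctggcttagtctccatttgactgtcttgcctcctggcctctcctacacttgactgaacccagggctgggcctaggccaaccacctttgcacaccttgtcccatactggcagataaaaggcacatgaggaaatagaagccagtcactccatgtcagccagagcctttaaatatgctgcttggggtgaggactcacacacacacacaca

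The WT library held 5016 barcodes and 54816411 UMIs, and the Card14KI library 3348 barcodes and 41460580 UMIs. Filtering left 4161 and 2835 cells, and the median cell had 7344 and 6876 UMIs, and 2 barcodes occurred in both libraries. Cells were clustered without the lipid genes and named by markers that hold no member, so that class names stand for marker-based likeness ("sebocyte-like" and so on). The sebocyte class held 176 WT and 166 Card14KI cells, and its median cell had 25011 and 22988 UMIs. All 12 sebocyte markers were detected there in both libraries, with summed levels of 31627 and 33978 CPM (counts per 1000000 UMIs of the class). Of 8 adipocyte markers, Plin1, Lep, Car3 and Cfd were at 0 UMIs in sebocytes of both libraries. Lpl was at 345 and 378 CPM there, and Adrb3 had 19 and 27 UMIs. Adipoq and Retn had 1 and 2 UMIs in WT and 0 in Card14KI. The class named basal sebaceous, a single cluster led by Akr1c18, held 117 and 95 cells. Of its 9 markers, 9 were detected in WT, Ptgs1 from 2 UMIs, and 8 in Card14KI, where Ptgs1 was at 0. In each library 7 were found in 10% of cells. Detection alone did not set the class apart, since spinous cells held 9 of 9 in both libraries. Summed levels of these markers were 6104 and 7920 CPM in the basal sebaceous class and 6382 and 6455 CPM in spinous cells. The score of the class was close to that of the basal interfollicular name, and under several other settings no cluster took the basal sebaceous name. None of the classes described here bore the basal interfollicular name. The class named spinous held all 10 basal interfollicular markers, with summed levels of 9383 and 11321 CPM beside 52758 and 51990 CPM of spinous markers. Krt5 was at 2297 and 2751 CPM there, and Krt15 at 910 and 2226 CPM. How far basal cells enter the spinous values was not tested.

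These transcripts took their highest share of UMIs in sebocytes. The 39 genes took 4.84% (4.82 to 4.86) of sebocyte UMIs in WT and 5.15% (5.13 to 5.17) in Card14KI, ratio 1.06 (1.06 to 1.07). The sebocyte class pooled an earlier cluster (99 WT and 81 Card14KI cells) and a later one (77 and 85 cells), set in order below. Median shares per cell were 2.30% and 3.08% in the earlier and 6.90% and 6.78% in the later cluster. In basal sebaceous cells the 39 genes took 0.548% and 0.607%, in spinous keratinocytes 0.220% and 0.192%, and in granular keratinocytes 0.240% and 0.328%. Fibroblasts, with 0.153% and 0.146%, and lymphocytes of the T cell or innate lymphoid class, with 0.118% and 0.102%, stood lower still. The next class after sebocytes was the small cycling keratinocyte cluster, with 0.618% and 0.955%.

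Of the 39 members, 30 were highest in sebocytes in both libraries among 12 classes with 30 or more cells in each, and 16 had over 50% of their summed class CPM there in both. These 12 are the compared classes to which statements on the highest class refer. Langerhans cells, Schwann cells, skeletal muscle, inner root sheath and outer root sheath had fewer than 30 cells in at least 1 library and are left out of them. Scd1, the main delta-9 desaturase, had 12730 CPM in WT and 17446 in Card14KI. Elovl6, which lengthens palmitate, stood at 8618 and 5905 CPM, and Mgst1, a membrane glutathione transferase, at 6330 and 7778 CPM. These levels of 3' counts are compared here between classes and libraries, not between genes of unequal capture. Elovl3, an elongase of very long fatty acids, was nearly confined to sebocytes, which held 94.4% of its UMIs among kept WT cells and 93.3% among kept Card14KI cells. The same share was 94.6% and 94.6% for Far2, which makes fatty alcohols for wax, and 93.9% and 93.6% for Cidea, a lipid droplet protein. Among the compared classes outside the sebaceous and cycling clusters Elovl3 was highest at 3.45 CPM in WT lymphatic endothelium and 2.15 CPM in Card14KI granular cells, Cidea at 3.45 and 3.76 CPM in the same classes, and Far2 at 2.66 CPM in WT B or plasma cells and 4.57 CPM in Card14KI granular cells. Mgst1 was less narrow, with 396 and 460 CPM in fibroblasts and 1585 and 2296 CPM in the cycling cluster. The cycling cluster also held Elovl3 at 58.5 and 120 CPM, Cidea at 197 and 168 CPM and Far2 at 75.4 and 97.8 CPM.

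Among the compared classes outside the sebaceous and cycling clusters, each of the 12 sterol synthesis genes was highest in the spinous or the granular layer in both libraries. Some classes left out for size had higher values, and examples follow. The inner root sheath of WT (151 cells, 1 in Card14KI) had more Nsdhl, at 26.3 CPM, and WT Schwann cells had 56.5 CPM from 4 UMIs. Schwann cells (17 and 31 cells) had more Msmo1, at 226 and 330 CPM from 16 and 23 UMIs. In Card14KI they had more Idi1, at 258 CPM from 18 UMIs. The 5 outer root sheath cells of Card14KI had Idi1 at 274 CPM and Hmgcs1 at 490 CPM. There 1 cell held 50 of 57 Idi1 UMIs, and 1 cell held 93 of 102 Hmgcs1 UMIs. Hmgcs1, which makes HMG-CoA, reached 383 CPM in WT spinous cells and 473 CPM in Card14KI granular cells. Fdps, the farnesyl diphosphate synthase gene, reached 279 and 344 CPM, Msmo1, a C4-methyl sterol oxidase gene, 214 and 306 CPM, and Sqle, the squalene epoxidase gene, 144 and 192 CPM, all in granular cells. Idi1, an isomerase of the isoprenoid steps, reached 148 CPM in WT spinous and 181 in Card14KI granular cells. Fdft1, the squalene synthase gene, reached 81.3 and 133 CPM in granular cells, and Mvk, the mevalonate kinase gene, 44.7 and 52.8 CPM in spinous cells. Mvd (23.1 and 26.3 CPM), Nsdhl (20.6 and 17.5) and Lss (17.3 and 11.8) were highest in spinous WT and granular Card14KI cells. Sterol genes of the layers thus stood at lower levels than in sebocytes, except for the pair that follows.

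Dhcr7 and Sc5d, which act in the last steps to cholesterol, went against the rest of the pathway. Dhcr7 had 29.6 and 35.9 CPM in WT and Card14KI sebocytes but 183 and 167 CPM in granular keratinocytes. Sc5d was at 0.617 and 0.876 CPM in sebocytes, from 3 and 4 UMIs, and at 87.7 and 110 CPM in granular keratinocytes. The upstream sterol genes were therefore high in the cells in which Sc5d was near 0, in both libraries.

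Of the regulators, Srebf2, which codes for SREBP-2, was at 130 and 137 CPM in sebocytes and at 86.5 and 96.5 CPM in its highest other compared class, spinous WT and granular Card14KI cells. In the 15 WT Langerhans cells, left out for size, it was at 180 CPM from 15 UMIs. Insig1 was at 315 and 386 CPM in sebocytes, and among compared classes outside the sebaceous and cycling clusters highest in lymphocytes of WT (84.6 CPM) and in macrophages or monocytes of Card14KI (103 CPM). Pparg, the nuclear receptor of fat-storing cells, was at 144 and 180 CPM in sebocytes and 130 and 150 CPM in basal sebaceous cells, and at 20.7 and 45 CPM in lymphatic endothelium, the next of the compared classes with the cycling cluster aside. Mc5r, a melanocortin receptor of the gland, was at 10.5 and 9.42 CPM in sebocytes and under 1 CPM in fibroblasts, its highest compared class outside the gland and the cycling cluster. Srebf1, which codes for SREBP-1, was the only member highest in sebocytes in 1 library alone. It stood at 181 and 137 CPM in sebocytes and at 218 and 130 CPM in basal sebaceous cells, and its highest level in the compared classes, the cycling cluster aside, was otherwise 31.9 CPM in WT fibroblasts and 34.4 CPM in Card14KI spinous cells.

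Among fatty acid genes the sebocyte levels in WT and Card14KI were 1018 and 1225 CPM for Fasn, the fatty acid synthase gene, 810 and 847 CPM for Acly, the ATP citrate lyase gene, and 72.0 and 59.4 CPM for Acaca, the acetyl-CoA carboxylase gene. Their highest levels in other compared classes, the cycling cluster aside, were 44.2 and 50.1 CPM (spinous), 79.4 and 115 CPM (lymphatic endothelium), and 24.6 and 31.5 CPM (spinous in WT, granular in Card14KI). Scd1 reached 152 and 141 CPM in spinous cells, Elovl6 124 and 162 CPM in granular cells, and Elovl5, an elongase of polyunsaturated chains, 98.5 and 122 CPM in lymphocytes. Scd3 and Elovl3 stayed under 4 CPM in each compared class outside the sebaceous and cycling clusters. Fads1, the delta-5 desaturase gene, was instead highest among the compared classes in fibroblasts, at 44.0 and 45 CPM, with 4 and 0 UMIs in sebocytes. Fads2 had 0 UMIs in sebocytes of both libraries, which allows up to 0.617 CPM in WT and 0.657 CPM in Card14KI at 3 counts, and 50 and 18 UMIs in all kept cells. The gland thus held many UMIs of genes for saturated and monounsaturated chains and next to none of the desaturase pair for polyunsaturated ones.

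The assembly genes were split in the same way. Soat1, which makes sterol esters, was at 2021 and 2186 CPM in sebocytes and at 177 CPM in WT neutrophils and 92.4 CPM in Card14KI macrophages or monocytes, its highest compared classes outside the sebaceous and cycling clusters. Awat2, a wax synthase gene, was at 63.8 and 64.0 CPM in sebocytes and 1.03 and 1.43 CPM in the upper hair follicle. Gpam, which starts glycerolipid synthesis, was at 30.7 and 28.7 CPM in sebocytes, and at 12.7 CPM in WT neutrophils, from 1 UMI, and 2.69 CPM in Card14KI granular cells. Agpat2, at 279 and 67.5 CPM in sebocytes, stood at 25.3 CPM in WT neutrophils, from 2 UMIs (3.07 to 91.5 CPM), and at 12.1 CPM in Card14KI lymphatic endothelium. Those are its highest values in the compared classes outside the sebaceous and cycling clusters, with basal sebaceous cells at 24.8 and 18.5 CPM. Dgat1 and Dgat2, the genes of both triglyceride synthases, and Far1, the other fatty acyl-CoA reductase gene, were not highest in sebocytes. Dgat1 was highest in neutrophils (595 and 579 CPM), with 100.4 and 99.3 CPM in sebocytes. Dgat2 was highest in granular keratinocytes (427 and 561 CPM), with 213 and 180 CPM in sebocytes. Far1 stood at 21.8 and 33.5 CPM in sebocytes and at 87.2 CPM in WT macrophages or monocytes. Plin2, which coats lipid droplets, was at 1711 and 1839 CPM in sebocytes, 1334 and 1648 CPM in basal sebaceous cells, and 494 CPM in WT neutrophils and 327 CPM in Card14KI macrophages or monocytes.

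**Figure D1:**
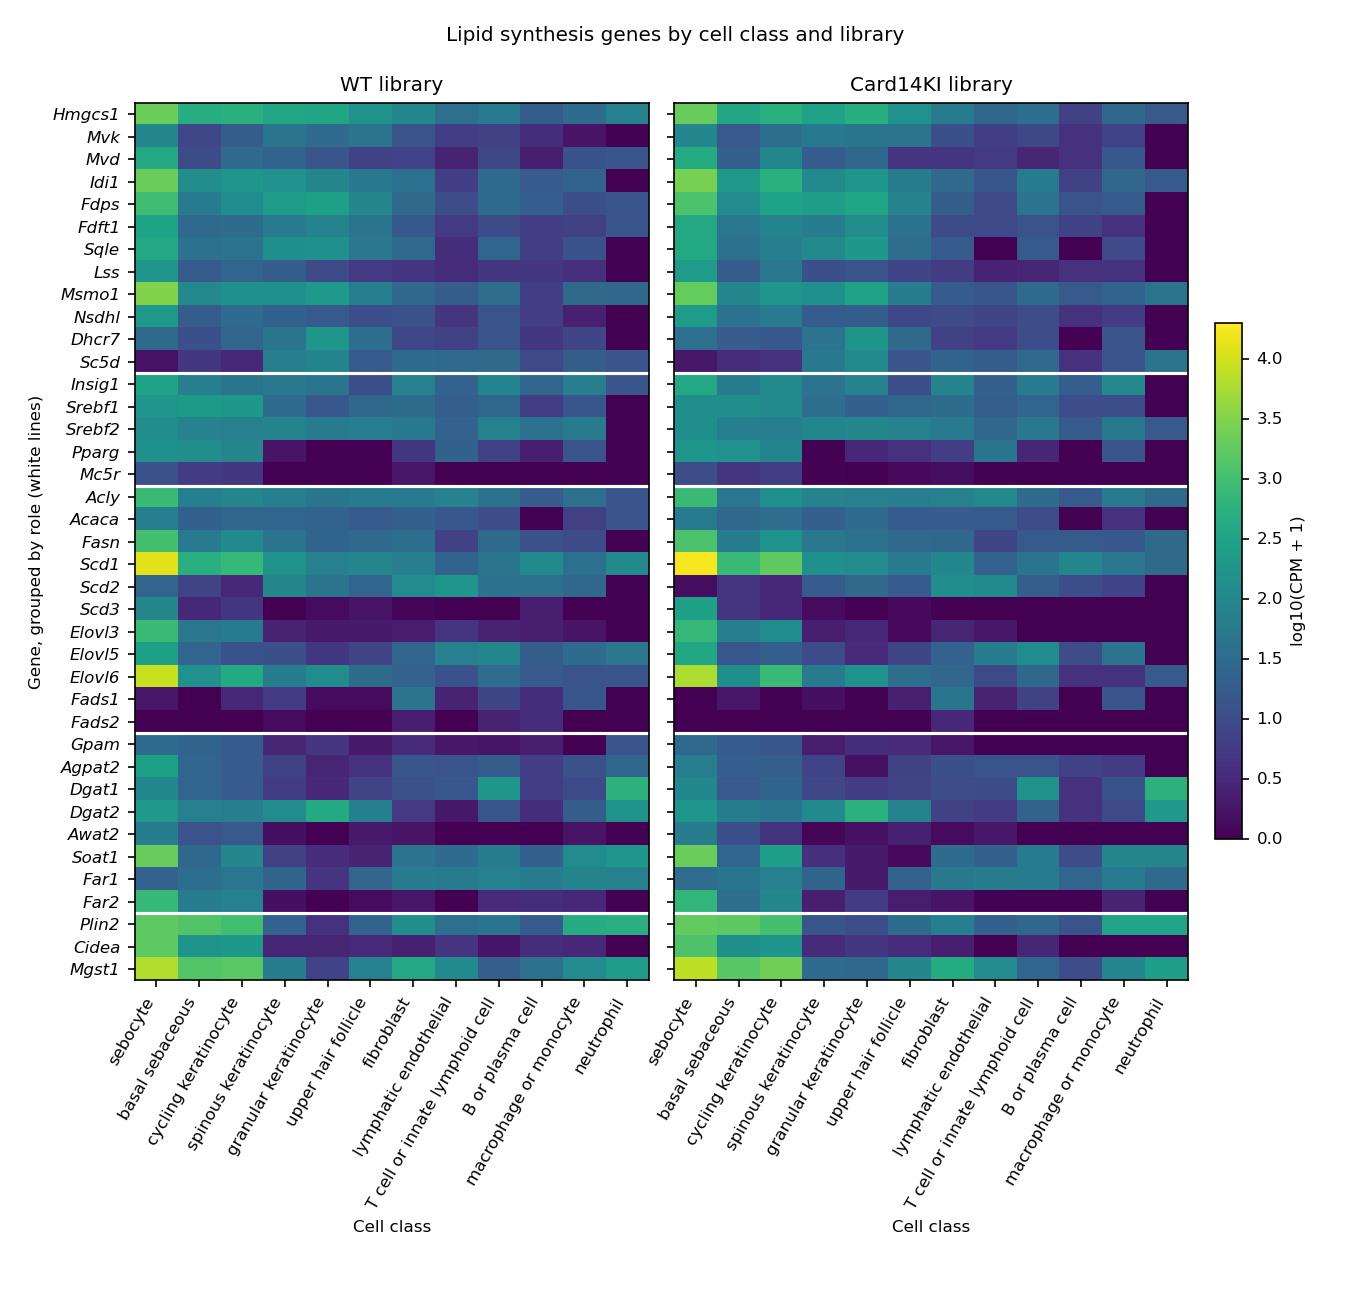
Level of each of the 39 genes, as log10(CPM + 1) in colour, by cell class (columns) in the WT (left) and Card14KI (right) library, with genes grouped by role. The sebocyte column is the brightest for 30 of the 39 genes in both libraries, while Dhcr7, Sc5d and Dgat2 are brightest in granular keratinocytes and Dgat1 in neutrophils.

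The gland clusters could be set in an order by marker levels. From the basal sebaceous cluster to the earlier and then the later of both sebocyte clusters, Krt5 went from 622 to 61.8 to 30 CPM in WT and from 539 to 129 to 63.1 CPM in Card14KI, and Akr1c18 from 2169 to 1825 to 345 CPM and from 3880 to 2835 to 790 CPM. Awat1, a wax synthase gene and sebocyte marker, was at 1.95, 4.12 and 227 CPM in WT and at 0.842, 0.497 and 230 CPM in Card14KI. "Earlier" and "later" name these marker levels and not a traced course, and the later cluster was also the deeper one, its median cell holding 30055 and 27350 UMIs against 18778 and 18793 in the earlier one.

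Along this order 27 of the 39 members were higher at each step in both libraries, where 37 had enough UMIs. Of 11624 genes with 10 or more UMIs in these clusters, 13.3% did the same. Only Sc5d was lower at each step in both, as 22.6% of those genes were. Few cells held Sc5d, 4.27% and 3.16% of basal sebaceous cells and 1.70% and 2.41% of sebocytes in WT and Card14KI. In both classes its UMIs were too few for the comparison between libraries, so its steps rest on few counts. Each sterol gene but Sc5d was among the 27, as were Insig1, Fasn, Acaca, Acly, Scd1, Scd3, the 3 elongase genes, Dgat1, Awat2, Soat1, Far2, Agpat2, Cidea and Mgst1. Soat1 had the widest span among members with 10 or more UMIs at every stage in both libraries, from 27.4 to 991 to 3048 CPM in WT and from 24.4 to 1078 to 3060 CPM in Card14KI. Elovl6 went from 147 to 4642 to 12583 CPM in WT and from 136 to 3855 to 7522 CPM in Card14KI. Mvd, the mevalonate diphosphate decarboxylase gene, went from 8.47 to 237 to 539 CPM and from 20.2 to 317 to 546 CPM. Hmgcs1, already at 485 and 361 CPM in basal sebaceous cells, spanned less, up to 2609 and 2414 CPM.

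Of the regulators only Insig1 was among the 27. Srebf2 was at 78.2, 134 and 127 CPM along the order in WT and at 70.8, 134 and 140 CPM in Card14KI, and Pparg at 130, 141 and 147 CPM and at 150, 182 and 178 CPM. Srebf1 was lower in the later sebocytes than in the earlier ones in both libraries, at 218, 238 and 125 CPM in WT and 130, 166 and 114 CPM in Card14KI. Plin2 was nearly level, at 1334, 1819 and 1603 CPM in WT and 1648, 1726 and 1928 CPM in Card14KI. Srebf2 and Pparg thus spanned less than 2-fold from the basal to the later cluster in both libraries.

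**Figure D2:**
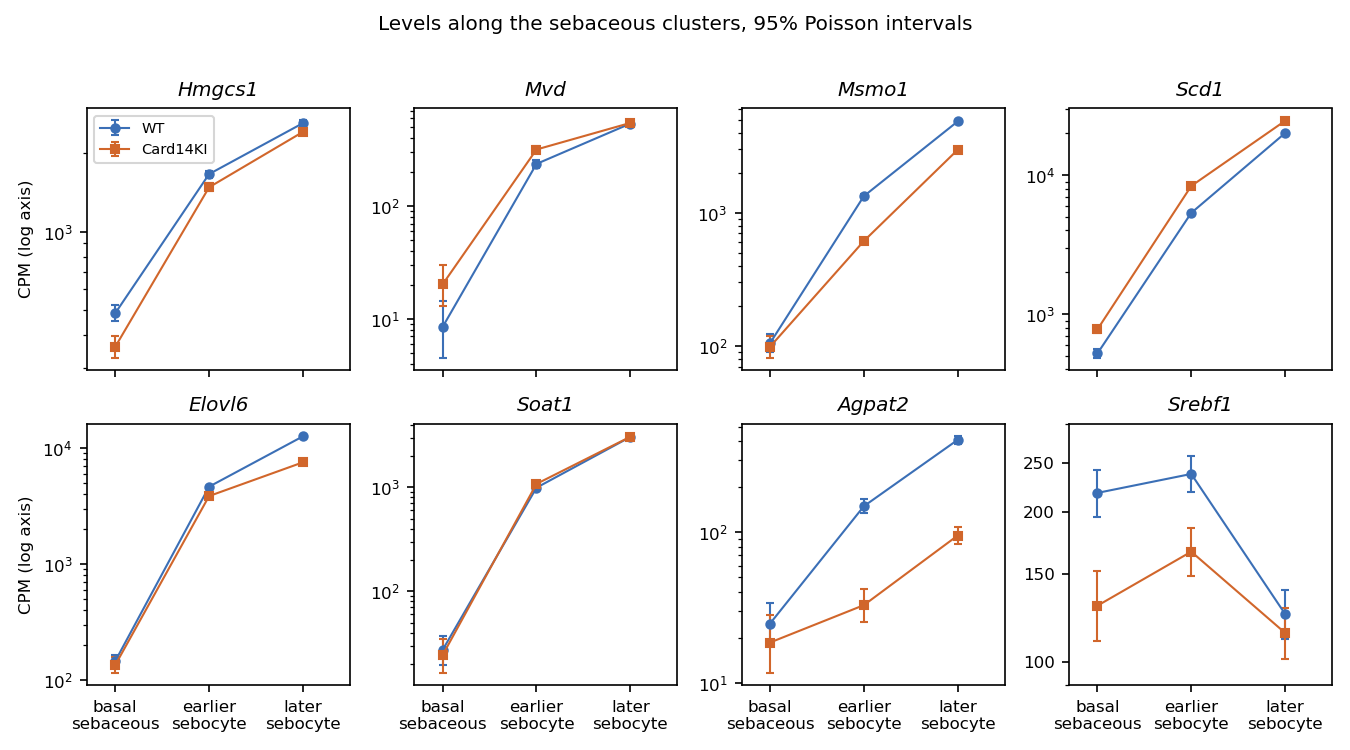
Level in CPM (log axes, which differ between panels) of 8 genes in the basal sebaceous, earlier sebocyte and later sebocyte clusters, with WT as circles, Card14KI as squares and bars for 95% Poisson intervals. Both libraries climb together for Soat1 (27.4 and 24.4 CPM to 3048 and 3060 CPM), part for Agpat2, and go down at the last step for Srebf1.

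In single cells the 39 genes took a median of 0.535% of a basal sebaceous cell's UMIs in WT and 0.550% in Card14KI, 2.30% and 3.08% in the earlier sebocytes, and 6.90% and 6.78% in the later ones. In the later cluster the values ran from 3.71% to 9.95% in WT and from 4.22% to 12.7% in Card14KI. The ranges of both libraries overlapped in each cluster, and the earlier cluster reached from 0.637% to 6.28% in WT and from 0.822% to 6.92% in Card14KI. Hence single cells of the earlier cluster spanned the gap between basal and later cells.

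**Figure D3:**
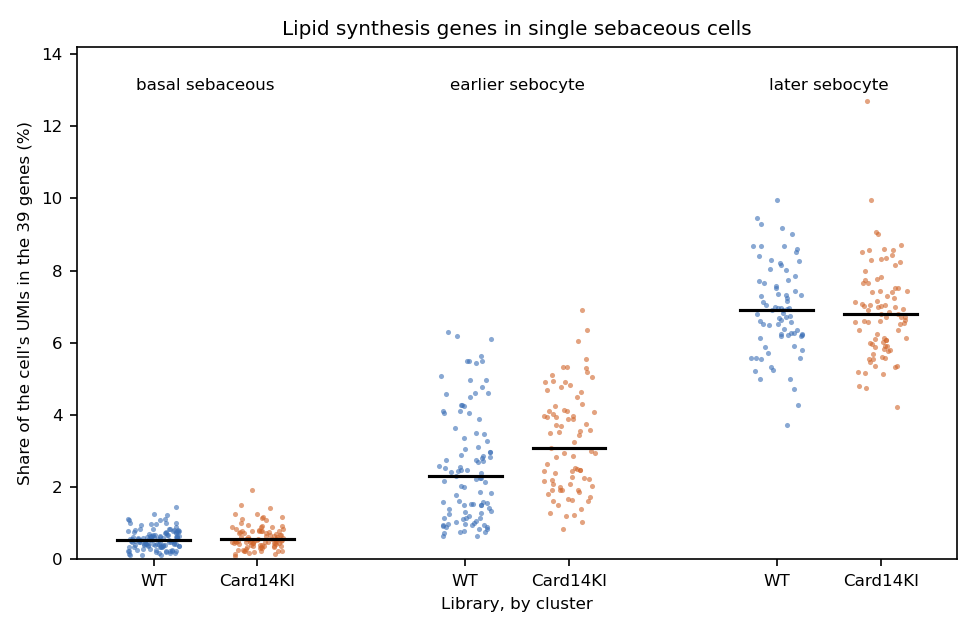
Share of each sebaceous cell's UMIs that fell in the 39 genes (1 point per cell, horizontal scatter without meaning, bar at the median), by cluster and library. Medians are 0.535% and 0.550%, 2.30% and 3.08%, and 6.90% and 6.78%, and WT and Card14KI cells overlap in every cluster.

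The next comparison asked how these genes differed between the libraries within sebocytes. A gene was counted as higher or lower where its CPM plus 10 differed by 1.5-fold or more, among genes with 10 or more UMIs in both libraries together. Of 36 members with enough UMIs, 1 was higher in Card14KI (Scd3) and 3 were lower (Msmo1, Scd2 and Agpat2), while Sc5d, Fads1 and Fads2 had too few. Over all 11029 genes with enough UMIs, 1.14% were higher and 1.06% lower. The members' median log2 ratio was 0.06, beside -0.04 over all genes. The other 32 members lay within the fold.

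Agpat2, whose enzyme acylates lysophosphatidic acid on the way to triglycerides and phospholipids, was at 279 CPM (264 to 294) in WT sebocytes and 67.5 CPM in Card14KI, from 1354 and 308 UMIs. The ratio was 0.242 (0.213 to 0.274), and it was 0.221 (0.167 to 0.288) within the earlier and 0.232 (0.201 to 0.268) within the later sebocyte cluster. An Agpat2 UMI was found in 142 of 176 WT cells (80.7%) and 89 of 166 Card14KI cells (53.6%). With each cell thinned to 2000 UMIs, leaving out 4 and 10 shallower cells, the shares were 26.7% (20.3 to 34.0) and 13.5% (8.53 to 19.8). In lymphocytes, taken as background with a median of 3172.5 and 3295 UMIs, they were 3.37% and 2.33% after thinning and 5.88% and 4.11% before. In the basal sebaceous cluster Agpat2 was at 24.8 and 18.5 CPM, ratio 0.749 (0.422 to 1.30), and in fibroblasts at 13 and 10.4 CPM. Egfl7, its neighbour on the other strand, had 16 and 4 UMIs in sebocytes. The gap was thus present in both sebocyte clusters, and the basal interval includes 1. Its paralog Agpat3, from the companion lists, stood the other way, with 64.4 and 148 CPM in WT and Card14KI sebocytes, ratio 2.30 (2.01 to 2.63).

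The desaturase genes parted from each other. Scd3, a desaturase that prefers palmitate, was at 96.5 CPM (88 to 106) in WT sebocytes and 287 CPM in Card14KI, ratio 2.97 (2.67 to 3.31). Nearly all of it lay in the later cluster, at 186 and 511 CPM, where the ratio was 2.75 (2.47 to 3.07), while the earlier cluster held 17 and 7 UMIs. A Scd3 UMI was found in 40 WT and 41 Card14KI sebocytes, 22.7% and 24.7%, and in 0 lymphocytes. With cells thinned to 2000 UMIs 6.98% of WT sebocytes (3.66 to 11.9) and 14.1% of Card14KI sebocytes (9.05 to 20.6) held one. The 5 richest cells held 59.3% of the WT UMIs and 52.6% of the Card14KI UMIs. Scd1 was at 12730 and 17446 CPM, ratio 1.37 (1.36 to 1.38) that stayed under the fold, with 5351 and 8363 CPM in the earlier cluster (ratio 1.56) and 20088 and 24612 CPM in the later one (ratio 1.23).

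Scd2, the desaturase gene best known from brain and newborn skin, had 116 UMIs in WT sebocytes and 2 in Card14KI, or 23.9 and 0.438 CPM, ratio 0.0184 (0.0022 to 0.0678). These UMIs lay in 23 WT cells, and the 5 richest held 70.7% of them. Spinous keratinocytes showed the same direction, at 88.2 CPM (505 UMIs, 77 of 224 cells) in WT and 16.1 CPM (205 UMIs, 89 of 418 cells) in Card14KI, ratio 0.183 (0.155 to 0.216). The level was lower in each of their 3 clusters, with ratios of 0.439, 0.190 and 0.140, the first within the fold once 10 CPM were added. Granular cells were at 44.4 and 29.3 CPM, ratio 0.660 (0.505 to 0.861), and upper hair follicle cells at 24.4 and 16.3 CPM. Fibroblasts, the compared class with most Scd2 in Card14KI, were at 117 and 128 CPM, ratio 1.10 (1.02 to 1.18). Lymphatic endothelium was at 177 and 109 CPM, ratio 0.617 (0.490 to 0.773), lymphocytes at 38.5 and 19 CPM and macrophages or monocytes at 26.5 and 6.27 CPM. Scd2 was thus lower in Card14KI in all of these classes but fibroblasts, and no test of that difference is possible with 1 mouse a group.

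Fibroblast markers were lower in Card14KI, as Scd2 was, in sebocytes, spinous cells and granular cells (288 and 27.4 CPM in the last). They were higher in basal sebaceous cells, at 117 and 190 CPM. All 8 were detected in sebocytes and in spinous cells of both libraries, with summed levels of 187 CPM in WT and 33.5 in Card14KI sebocytes, and 1001 and 47.9 CPM in spinous cells. In WT fibroblasts themselves there were 0.262 Scd2 UMIs per 100 fibroblast marker UMIs, whereas WT sebocytes had 12.7 and WT spinous cells 8.82. In Card14KI the same ratio was 0.465 in fibroblasts, 1.31 in sebocytes (from 2 Scd2 UMIs) and 33.7 in spinous cells. Granular cells had 15.4 in WT and 107 in Card14KI. The part of fibroblast RNA in the Scd2 values was not tested. The inner root sheath class had 106 CPM of Scd2 in WT and only 1 cell in Card14KI. Its 8 markers were at 540 and 381 CPM in spinous cells, where 5 and 2 were found in 10% of cells. In sebocytes they were at 411 and 302 CPM, with 7 detected in WT and 3 in Card14KI. There 6 and 2 were found in 10% of cells, and Krt25, Krt27, Krt71, Krt72 and Krt73 were at 0 in Card14KI. The part of inner root sheath RNA in the Scd2 values was not tested.

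**Figure D4:**
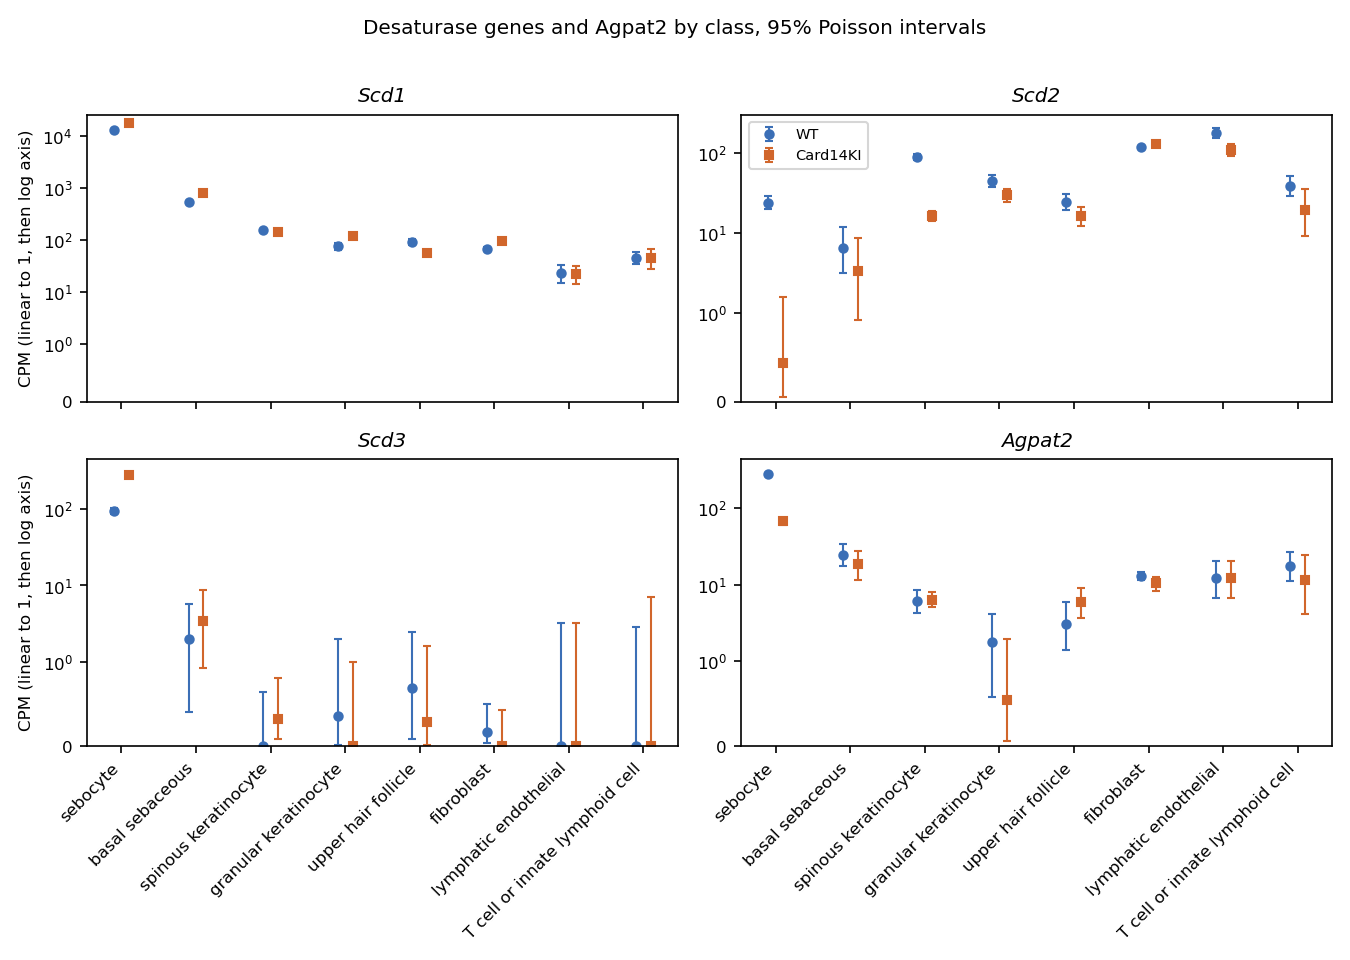
Level in CPM (axis linear up to 1 and logarithmic above, 0 included) of Scd1, Scd2, Scd3 and Agpat2 in 8 cell classes, WT as circles and Card14KI as squares with 95% Poisson intervals. Scd2 differs in sebocytes (23.9 and 0.438 CPM) and spinous cells (88.2 and 16.1 CPM) but not by the fold in fibroblasts, and Agpat2 and Scd3 differ in sebocytes, their class of highest level.

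Msmo1 was the sterol gene that stood apart, at 3096 CPM (3047 to 3146) in WT sebocytes and 1932 CPM in Card14KI, ratio 0.624 (0.608 to 0.641). Within clusters it was at 1333 and 614 CPM in the earlier and at 4854 and 2972 CPM in the later sebocytes, ratios of 0.460 and 0.612, and 173 WT and 161 Card14KI cells held a UMI. In basal sebaceous cells Msmo1 was at 105 and 98.6 CPM. The other 10 sterol genes with enough UMIs were within the fold, with ratios from 0.937 for Hmgcs1 (2136 and 2002 CPM) to 1.30 for Fdps (926 and 1202 CPM). Between them were Mvk (97.9 and 96.6 CPM), Sqle (390 and 401), Nsdhl (212 and 237), Mvd (388 and 445), Idi1 (2181 and 2594), Dhcr7 (29.6 and 35.9), Lss (181 and 228) and Fdft1 (307 and 386). Msmo1 was thus the 1 sterol gene lower by the fold, while Nsdhl, which acts with it in removing sterol methyl groups, was not.

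Among the other members Elovl6 came close to the fold, with a ratio of 0.685 (0.675 to 0.696), and passed it in the later sebocytes alone, at 12583 and 7522 CPM (ratio 0.598) against 4642 and 3855 CPM (ratio 0.831) in the earlier ones. Cidea was at 1682 and 1232 CPM, ratio 0.733, and Srebf1 at 181 and 137 CPM, ratio 0.757. Far1, at 21.8 and 33.5 CPM, had a plain ratio of 1.54 (1.19 to 1.99), which the added 10 CPM brings under the fold. The remaining sebocyte ratios ran from 0.825 for Acaca to 1.32 for Elovl5, with Elovl3 at 839 and 730 CPM, Elovl5 at 279 and 368, Far2 at 747 and 689, Soat1 at a ratio of 1.08 and Plin2 at 1.07. Members of every role stood on both sides of 1.

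**Figure D5:**
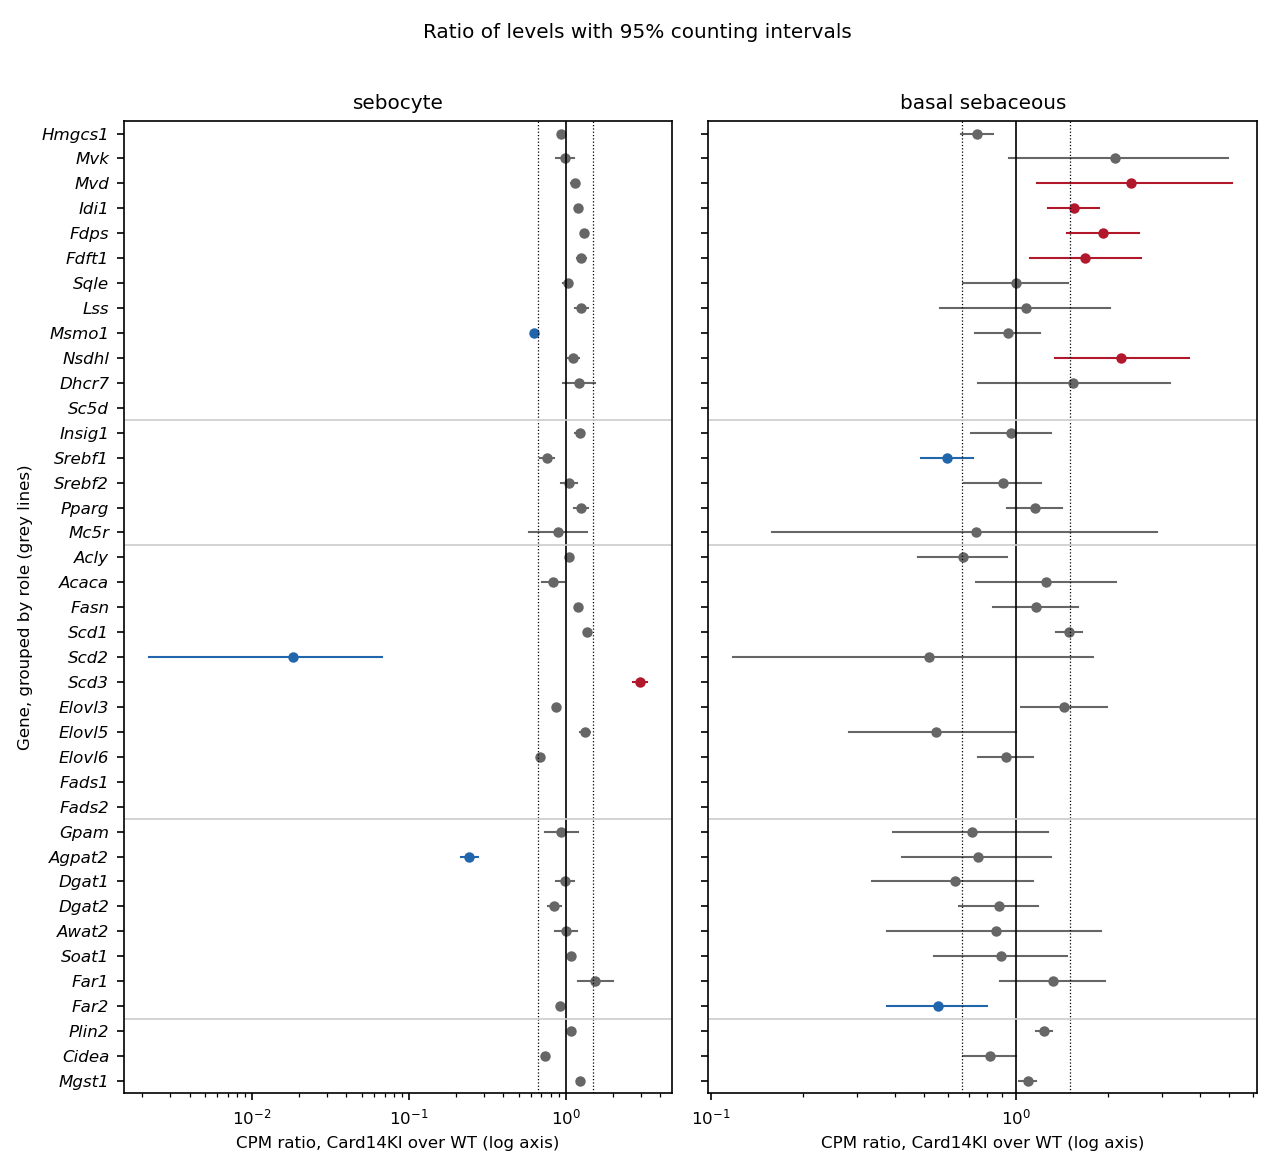
Plain ratio of CPM, Card14KI over WT (log axis), of each gene with 10 or more UMIs in sebocytes (left) and basal sebaceous cells (right), with 95% counting intervals, a line at 1 and dotted lines at 1.5-fold. Red marks genes counted as higher and blue those counted as lower after 10 CPM were added. In sebocytes Scd3 stands at 2.97 and Agpat2 at 0.242, and in basal sebaceous cells 5 sterol genes are red.

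In basal sebaceous cells 5 of 35 members with enough UMIs were higher in Card14KI and 2 were lower, while 2.13% and 6.33% of 9811 genes were. The members' median log2 ratio was -0.05, beside -0.10 over all genes. The 5 were all sterol synthesis genes: Fdps (61.2 and 118 CPM, ratio 1.93, 1.47 to 2.53), Idi1 (131 and 202 CPM, 1.54, 1.27 to 1.87), Nsdhl, a sterol dehydrogenase gene (17.6 and 38.8 CPM, 2.20, 1.34 to 3.69), Mvd (8.47 and 20.2 CPM, 2.39, 1.17 to 5.11) and Fdft1 (28.0 and 47.2 CPM, 1.68, 1.11 to 2.57). Mvd rested on 13 and 24 UMIs. Hmgcs1, at the head of the pathway, was instead at 485 and 361 CPM, ratio 0.743 (0.658 to 0.838). Sqle and Lss, the lanosterol synthase gene, had ratios of 1.0 (0.672 to 1.48) and 1.08 (0.565 to 2.04). The median log2 ratio was 0.55 over 11 sterol genes and -0.23 over 8 assembly genes, so the roles differed in their middle values in this cluster. None of the 5 was counted as higher when the cells were filtered more strictly and the cluster led by Akr1c18 was taken, with 92 and 83 cells.

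The lower members were Srebf1, at 218 and 130 CPM with 335 and 154 UMIs and a ratio of 0.594 (0.488 to 0.722), and Far2, at 63.8 and 35.4 CPM with a ratio of 0.554 (0.377 to 0.803). Srebf1 was lower by the fold under all 10 alternative settings that gave this class a value. Of these settings, naming by the mean and a minimum of 1 UMI could not alter the ratio. Acly (71.7 and 48.0 CPM, ratio 0.670) and Elovl5 (24.8 and 13.5 CPM, ratio 0.544) lay just within the fold, as did Scd1 on the other side (521 and 777 CPM, ratio 1.49). Mvk (7.17 and 15.2 CPM), Dhcr7 (10.4 and 16), Insig1 (69.1 and 66.6), Elovl3 (48.9 and 69.9), Dgat1 (24.1 and 15.2), Soat1 (27.4 and 24.4), Cidea (167 and 137) and Mgst1 (1384 and 1513) were within the fold too. So were Acaca (20.8 and 26.1 CPM), Fasn (56.7 and 65.7), Gpam (23.5 and 16.8), Dgat2 (74.9 and 65.7), Awat2 (11.7 and 10.1) and Far1 (35.2 and 46.3). Scd2 and Mc5r, with 10 and 4 UMIs and 7 and 4 UMIs, were near the limit of what could be compared.

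The small cycling keratinocyte cluster, also led by Akr1c18, held 35 WT and 34 Card14KI cells. The 39 genes took 0.618% and 0.955% of its UMIs, but 0.496% and 0.637% without the 2 richest cells of each library, and the median cell had 0.409% and 0.402%. Its excess in Card14KI thus rested on few cells, and its genes are not compared one by one.

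In the layers of the epidermis between the follicles the differences were few or depended on the cells and settings used. The spinous class, which also held basal interfollicular markers, kept 58 and 135 cells when clusters were named by the mean. In spinous keratinocytes, with 224 WT and 418 Card14KI cells, 0 of 34 members were higher and 2 were lower, beside 0.754% and 3.15% of 12733 genes. These were Scd2 and Mgst1, the latter at 66.2 and 31.3 CPM, ratio 0.473 (0.410 to 0.546). Mgst1 was lower in 2 of the 3 spinous clusters, at 60.6 and 22.8 CPM and at 129 and 51.3 CPM, and at 18.9 and 15.9 CPM in the cluster led by Krt77 and Krt10. Its log2 ratio of -0.88 ran from -1.06 to -0.07 over 13 alternative settings and stayed past the fold in 7 of them. The members' median was -0.10, beside -0.06 over all genes.

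In granular keratinocytes, with 95 and 134 cells, 8 of 32 members were higher and 0 lower, beside 5.76% and 2.38% of 9187 genes. The median log2 ratio was 0.15 over all genes and 0.38 over the members. Marker lists of other layers moved with it: all 10 spinous markers were detected in both libraries, with summed levels of 81803 and 101977 CPM, and 9 and 10 of 10 basal interfollicular markers, with 89.9 and 191 CPM. Krt1 was at 1031 and 2016 CPM, Krt14 at 20.8 and 66.7, Krt5 at 12.2 and 38.2, and Krt79 at 109.9 and 9.14. The part of these shifts in the members' values was not tested. Idi1 was at 90.6 and 181 CPM (ratio 2.0, 1.73 to 2.32), Fdft1 at 81.3 and 133 CPM (1.63, 1.39 to 1.92), Mvd at 12.5 and 26.3 CPM, Insig1 at 46.2 and 79.8 CPM, Acly at 45.1 and 72.9 CPM and Scd1 at 74.1 and 117 CPM. Mgst1, at 6.45 and 27.7 CPM, owed 68 of its 103 Card14KI UMIs to 1 cell, and Plin2, at 3.22 and 9.95 CPM, 21 of 37. Without the top cell of each gene the log2 ratios of these last genes were 0.37 and 0.24 in place of 1.20 and 0.59. The count of 8 was 4 when both libraries were given equal cluster weights and 1 with doublets kept. It also changed on the same cells with median-of-ratios scaling and with a pseudocount of 1, as given in the last section. The count thus depends on the settings used.

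The rest of the pathway was read from 4 companion lists. In sebocytes 0 of 13 other sterol synthesis and uptake genes were past the fold in either direction (median log2 ratio 0.15), with Cyp51, a demethylase gene, at 727 and 752 CPM. Of 13 SREBP escort, LXR and PPAR regulators 0 were past it (median -0.09). Of 15 other genes of fatty acid supply and elongation 1 was higher, Elovl7, at 5.55 and 17.5 CPM (27 and 80 UMIs), and 0 were lower. Of 13 other genes of glycerolipids, waxes, storage and breakdown 1 was higher, Agpat3, and 0 were lower. Over all 11029 genes in sebocytes 1.14% were higher and 1.06% lower. In basal sebaceous cells 13, 12, 14 and 9 genes of the 4 lists, in the same order, had enough UMIs. There Pmvk, a mevalonate pathway kinase gene, was the 1 higher gene, and Scap, Abca1, Ppard and Fa2h were the 4 lower ones. Over all 9811 genes there 2.13% were higher and 6.33% lower. No gene of the 4 lists was past the fold in spinous cells. In granular cells 1 of 13 genes of the fatty acid supply list was higher, Acss2. Of 9 genes of the glycerolipid list 2 were lower, Gpat3 and Lipe. Over all 9187 genes there 5.76% were higher and 2.38% lower.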

How the data were processed

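Whole back skin of 1 WT and 1 Card14KI mouse was dissociated and captured with the 10x 3' chemistry, per the labels' protocols. The deposited tables hold whole UMI counts by gene and barcode and were not normalized. Counting used Cell Ranger 6.0.2 with mm10 per the submitters' processing notes, but 5.0.0 per the file headers, and neither source names the annotation release or the use of strand.

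Cells with under 500 genes or 20% or more mitochondrial UMIs were removed, as were the highest Scrublet scores up to 0.8% per 1000 barcodes (174 WT and 78 Card14KI cells), because its own threshold marked 2 and 4. Both libraries were clustered together on 2000 variable genes without the members or companion genes, with 30 components, 20 neighbours and Leiden resolution 1 (scanpy 1.11.5, leidenalg 0.10.2). Clusters took the class whose markers led them by fold over the median of the other clusters, with 3 or more markers found in 10% of cells. The authors' annotation was not used here. Counts were summed by class and scaled to CPM, with exact Poisson intervals, exact conditional binomial intervals for ratios (written Card14KI over WT) and exact Clopper-Pearson intervals for shares of cells (SciPy 1.17.1). Log2 ratios are of CPM + 10. The comparison was tested on simulated counts, and the outcome is not reported here.

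The members and lists were chosen with earlier results of these data known. Named with values were members with 10 or more UMIs in the sebaceous classes, those past the fold in the layers, the highest class outside the gland, and up to 3 genes of each companion list past the fold in sebocytes. Other genes shown were chosen after their values were seen. Alternatives were other cell filters, doublets kept, resolution 0.5, lipid genes kept in clustering, a per-cell marker gate, naming by the mean, other scalings, a pseudocount of 1, a minimum of 1 UMI and leaving out the top cell of each gene. Some genes of the companion lists are not reported here.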

Additional observations from a re-analysis of the deposited data

How the results depend on the processing

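No paired analysis was possible because each group has 1 library. In sebocytes the 1 higher member became 2 with a pseudocount of 1 and 2 at resolution 0.5, and the 3 lower members were 2 to 4 under the 13 alternatives. Scd3, Scd2 and Agpat2 stayed past the fold on the same side under all 13 alternatives, with log2 ratios from 1.33 to 1.61, from -4.11 to -1.38 and from -2.03 to -1.70. Msmo1 did so under 11 of 13, from -0.78 to -0.58. Naming by the mean left the same 176 and 166 sebocytes, and a minimum of 1 UMI changed only which genes were compared. Neither could alter these ratios. In basal sebaceous cells the 5 higher and 2 lower members were 9 and 4 with the marker gate and 10 and 1 with the cycling cluster joined, and 5 were lower with a pseudocount of 1. No cluster took the basal sebaceous name with either other cell filter, with doublets kept, at resolution 0.5 or with lipid genes kept. Taking the cluster led by Akr1c18 gave 0 higher and 4 lower with the stricter filter, and 4 and 3 with lipid genes kept. That choice, the joined cluster and the same cluster weights were added after seeing the data.

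In spinous cells 1 member was higher and 6 were lower with a pseudocount of 1, and 1 was lower with no cell filter, the stricter filter, doublets kept, resolution 0.5, the marker gate and naming by the mean. In granular cells the 8 higher and 0 lower members were 2 and 1 with median-of-ratios scaling, 14 and 2 with a pseudocount of 1, 3 and 1 with no cell filter, 5 and 3 with the stricter filter, 1 and 1 with doublets kept, 5 and 3 at resolution 0.5, 3 and 1 with lipid genes kept, and 4 and 1 with the same cluster weights. Insig1 there reversed to -0.40 with no cell filter, -0.83 with the stricter filter and -0.86 at resolution 0.5, and Mvd to -0.095 with the stricter filter and -0.093 at resolution 0.5. The cause was not tested. Over all genes of the granular class the median log2 ratio also changed with the setting. It was 0.15 in the main setting, 0.03 with median-of-ratios scaling, 0.25 with a pseudocount of 1 and 0.05 with the same cluster weights. Depth limits Sc5d, Fads1 and Fads2 in the gland, where they had too few UMIs to compare.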
